A study of Mus musculus with 8 samples.

Results

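The effect of losing Hdac3 was compared between 2 sources of mouse neural RNA, cultured neurospheres and newborn cerebral cortex, to show which gene responses were shared, which went in opposite directions and which were seen in 1 source alone. The comparison used all 8 RNA-seq libraries of the series, 2 wild-type (WT) and 2 Hdac3 KO for each source, all on a C57BL/6 background. Neurospheres, clusters of neural progenitors and their progeny that grow in suspension, were kept to day 4 from cerebrum dissected at E16.5 (libraries WT 5, WT 6, KO 7 and KO 8). Cortex was the dorsal part taken directly from postnatal day 0 brains (libraries WT 1, WT 2, KO 1 and KO 2). The titles of the cortex KO libraries name Emx1, whose Cre driver acts in dorsal telencephalic progenitors and their descendants, so that cells born elsewhere need not lack the enzyme. For the neurosphere KO no driver was given in the sources used here. Source, age, culture and possibly driver differ together between the 2 sets and cannot be told apart.

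The units compared were genes. The deposited tables of FPKM (fragments scaled to transcript length and to the mapped total of the library) held 11496 genes for neurospheres and 12056 for cortex, of which 11015 were in both. A mean of at least 1 FPKM in each table left 10947 genes for testing. For each of them the KO minus WT change on the log2(FPKM + 1) scale was taken within each table, and the cortex change was subtracted from the neurosphere change. This value is called the difference here: positive where the KO effect was higher in neurospheres, negative where it was lower. The difference was tested in 1 fit of all 8 libraries (limma-trend, two-sided, Benjamini-Hochberg adjustment over the 10947 genes, threshold 0.05), and the KO effect of each tissue in a fit of its own 4 libraries. Adding 1 FPKM understates fold changes of low genes.

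HDAC3 is a histone deacetylase that works inside corepressor complexes built on NCoR or SMRT, which transcription factors such as nuclear receptors recruit to keep target genes acetylated at a low level. The same enzyme can therefore act on different genes in different cells. Neurospheres are rich in dividing radial glia-like progenitors, whereas newborn cortex is dominated by postmitotic neurons, with radial glia, early glia, vessels and microglia among them. In bulk samples, fewer cells of a type and less RNA per cell cannot be told apart.

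Levels went with these labels. Nes, the intermediate filament nestin of neural progenitors, was at 109 to 111 FPKM in WT neurospheres and 13.6 to 14.99 in WT cortex, and the neuronal tubulin Tubb3 at 335 to 441 and 1270.1 to 1308. The tables were normalized separately, so such levels are only set side by side. No WT value in either table was below 0.999 FPKM, so genes off in WT and on in KO could not enter the comparison. Of the marker lists for cells that a progenitor culture may lack, 0 of 14 endothelial and pericyte genes, 3 of 17 microglia and macrophage genes and 2 of 14 meningeal fibroblast genes could be tested. Replicates correlated across genes at r = 0.975 (WT) and 0.969 (KO) in neurospheres and 0.996 and 0.997 in cortex. The median gene rested on 346 to 440 implied fragments in a neurosphere library and on 580 to 709 in a cortex library. Ddx3y, Eif2s3y and Kdm5d, which lie on the Y chromosome, were listed at 0 in cortex KO 1 and at 5.05 to 26.1 FPKM in the other 3 cortex libraries, and were not in the neurosphere table.

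Levels of Hdac3, the targeted gene, check the labels. It was at 34.4 and 28.7 FPKM in WT 5 and WT 6 and 18.03 and 20.5 in KO 7 and KO 8, and at 48.1 and 46.1 FPKM in WT 1 and WT 2 and 26.8 and 27.1 in KO 1 and KO 2. WT and KO libraries did not overlap in either tissue. The effect of KO was −0.68 (SE 0.16) in neurospheres and −0.78 (SE 0.07) in cortex on the log2 scale, with adjusted p = 0.103 and 9.65e-05 (limma-trend), so the neurosphere change did not pass. The difference was 0.10 (95% interval −0.28 to 0.48, adjusted p = 0.798, limma-trend). An FPKM value cannot show which exons were deleted, and both KO levels were above 0.

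Across all genes the effects in the 2 tissues were only loosely alike. Of 10947 genes, 64.1% moved in the same direction in both, and 56.1% when each tissue's median change was taken as its 0. The median change was −0.15 in neurospheres and −0.10 in cortex, and after rescaling libraries by the median of ratios it was 0.00 in each. Pearson's r between both sets of log2 fold changes was 0.18 across genes, which are not independent replicates.

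The difference passed the threshold for 153 genes (1.40% of those tested), 46 higher (0.420%) and 107 lower (0.977%) in neurospheres, and 1929 genes were under an unadjusted p of 0.05. In all 153 the 4 single-library KO minus WT values of one tissue did not overlap those of the other. Choice by this test on the same libraries favours such a gap. It is thus no separate support, and its share over all genes is not given. The KO effect had opposite signs in 105 of the 153 and the same sign, with unequal size, in 48, against 64.1% with the same sign over all genes. A large difference is reached more readily with opposite signs, so this split follows in part from the choice. The smallest called difference was 0.75 on the log2 scale. This is not a detection limit, since the size needed depends on the SE of each gene. Within tissues, 26 genes rose (0.238%) and 100 fell (0.913%) in KO neurospheres, while 577 rose (5.27%) and 2084 fell (19.0%) in KO cortex. Without rescaling, 67.7% of all genes lay below 0 in neurospheres and 70.6% in cortex. The authors' deposited tables called more rises than falls in both tissues (430 and 285 in neurospheres, 866 and 726 in cortex). The excess of falls is thus not read as the direction of the KO effect. Cortex was measured more tightly, with a median residual SD over genes of 0.0743 against 0.178 in neurospheres. The smallest called change was 0.20 in cortex and 0.84 in neurospheres. A cortex call without a neurosphere call is thus no sign of a difference between tissues.

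**Figure D1:**
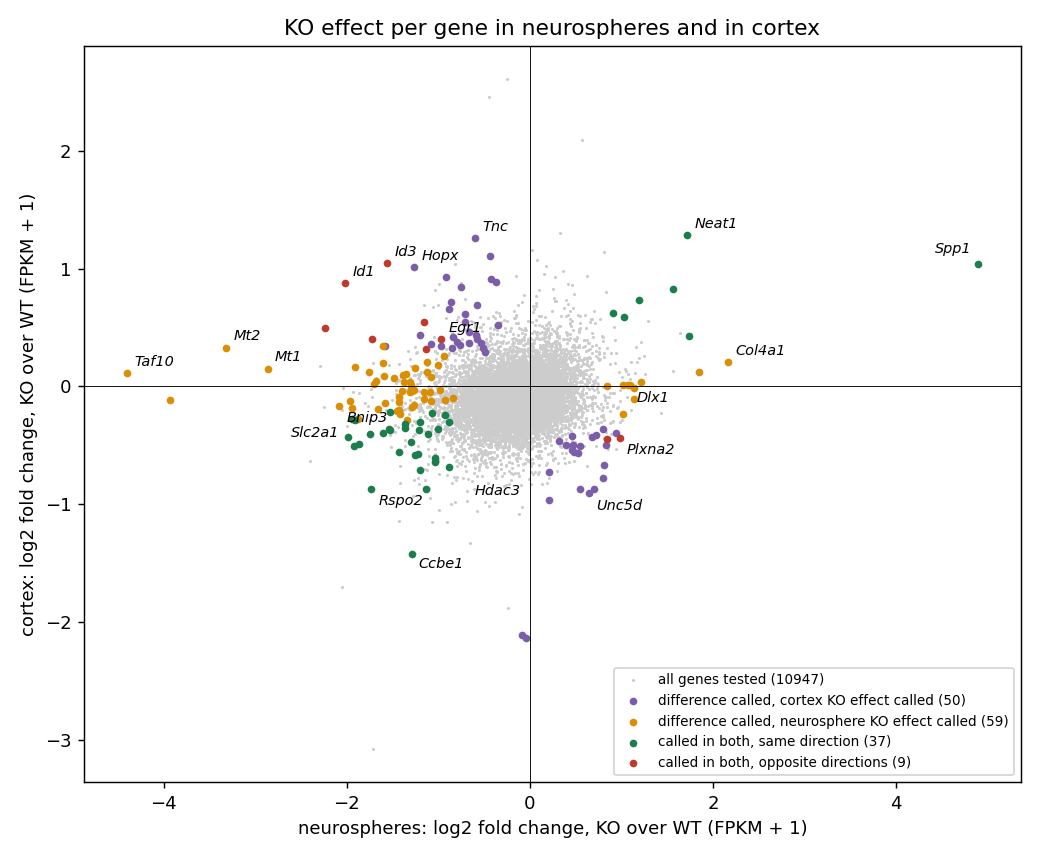
Each point is 1 of 10947 genes, with the log2 fold change (KO over WT, FPKM + 1) in neurospheres on the x axis and in cortex on the y axis; colours mark the classes given in the legend with their counts. Id1, Id3 and Egr1 lie in the upper left, Plxna2 in the lower right, and Mt1, Mt2, Bnip3, Col4a1 and Dlx1 near 0 on the cortex axis.

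The counts depended on single libraries. Without cortex WT 1, WT 2, KO 1 or KO 2 the higher and lower calls went to 0 and 3, 0 and 4, 1 and 5, and 3 and 14. Without neurosphere WT 5 they were 48 and 59, without WT 6 388 and 774, without KO 7 92 and 262, and without KO 8 104 and 419. Leaving out a library of the tighter tissue gives the looser one more weight in the shared spread, and the reverse. What part this had in the changed counts was not tested. Of the 153 called genes 151, 144 and 152 kept the call without neurosphere WT 6, KO 7 and KO 8, 77 without WT 5, and 3, 4, 4 and 14 without cortex WT 1, WT 2, KO 1 and KO 2. Id3, Taf10 and 1500012F01Rik were called in every one of them.

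Genes called in both tissues numbered 46, of which 9 went in opposite directions, and the difference itself was called for all 9. Of the neurosphere falls, 7% rose in cortex against 5.27% of all genes, and of the neurosphere rises 7.69% fell in cortex against 19.0%. Both shares are read against these backgrounds only as a description. Without neurosphere WT 5 or WT 6 no gene was called in both tissues. Opposite calls numbered 19 without KO 7, 38 without KO 8, 11 and 9 without cortex WT 1 and WT 2, and 3 and 6 without cortex KO 1 and KO 2.

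Among opposite genes without an entry of 0, Id1 and Id3 had the largest differences. They encode helix-loop-helix proteins without a DNA-binding part that hold back proneural bHLH factors, and both are classical targets of BMP signalling. Id3 was at 39.8 and 30.7 FPKM in WT 5 and WT 6 and 12.2 and 10.3 in KO 7 and KO 8, and at 36.3 and 38.1 FPKM in WT 1 and WT 2 and 81.4 and 74.2 in KO 1 and KO 2. KO lay below WT in neurospheres and above it in cortex, with no overlap in either tissue. The log2 fold change was −1.56 (SE 0.18) in neurospheres and 1.04 (SE 0.07) in cortex, adjusted p = 0.0228 and 2.61e-05. The difference was −2.60 (95% interval −3.06 to −2.14, adjusted p = 0.00328, limma-trend). Id1 followed the same pattern, at 24.6 and 14.2 FPKM in WT and 5.14 and 2.86 in KO neurospheres and 16.1 and 15.5 FPKM in WT and 29.5 and 30.1 in KO cortex. Its difference was −2.90 (−3.76 to −2.03, adjusted p = 0.0139, limma-trend), which missed the threshold without any 1 of the 4 cortex libraries (adjusted p up to 0.106). Of 12 tested members of the Id and BMP list, these were the 2 with a called difference (background 0.977% lower).

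Egr1, Klf10, Rasl11a, Thrsp and Cox4i2 also fell in neurospheres and rose in cortex. Egr1, an immediate early zinc finger transcription factor, was at 109 and 97.5 FPKM in WT and 53.9 and 50.2 in KO neurospheres and 4.58 and 4.22 FPKM in WT and 6.47 and 5.80 in KO cortex. Its difference was −1.37 (−1.73 to −1.02, adjusted p = 0.00934, limma-trend). Klf10, a zinc finger factor induced by TGF-beta, was at 20.1 and 20.9 FPKM in WT and 10.4 and 7.38 in KO neurospheres and 5.25 and 4.90 FPKM in WT and 6.62 and 6.50 in KO cortex (difference −1.45, adjusted p = 0.0242, limma-trend). In neither gene did WT and KO overlap. Thrsp, a thyroid hormone responsive regulator of lipid synthesis, was at 19.9 and 23.5 FPKM in WT and 9.57 and 8.69 in KO neurospheres and 5.19 and 4.47 FPKM in WT and 8.23 and 6.78 in KO cortex (difference −1.70, adjusted p = 0.0111, limma-trend). Rasl11a, a small Ras-like GTPase, was at 15.9 and 12.9 FPKM in WT and 2.70 and 4.80 in KO neurospheres and 3.53 and 2.84 FPKM in WT and 4.19 and 4.86 in KO cortex (difference −2.13, adjusted p = 0.0225, limma-trend). Cox4i2, an isoform of a cytochrome c oxidase subunit, was listed at 0 in both neurosphere KO libraries, against 1.204 and 1.54 FPKM in WT and 2.57 and 2.11 in KO cortex, and no fold is given for it in neurospheres.

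Plxna2 and Rph3a were the 2 genes called in the reverse sense. Plxna2, a plexin receptor for semaphorins in axon guidance, was at 29.1 and 33.8 FPKM in WT and 59.3 and 66.5 in KO neurospheres and 29.7 and 29.8 FPKM in WT and 22.5 and 20.9 in KO cortex. KO lay above WT in one tissue and below it in the other. The effect of KO was 0.98 (SE 0.15) in neurospheres and −0.44 (SE 0.07) in cortex on the log2 scale, and the difference was 1.42 (1.06 to 1.78, adjusted p = 0.00898, limma-trend). Rph3a, the synaptic vesicle protein rabphilin, was at 29.0 and 31.4 FPKM in WT and 52.5 and 57.4 in KO neurospheres and 24.9 and 22.5 FPKM in WT and 15.8 and 18.6 in KO cortex (difference 1.29, adjusted p = 0.0136, limma-trend).

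**Figure D2:**
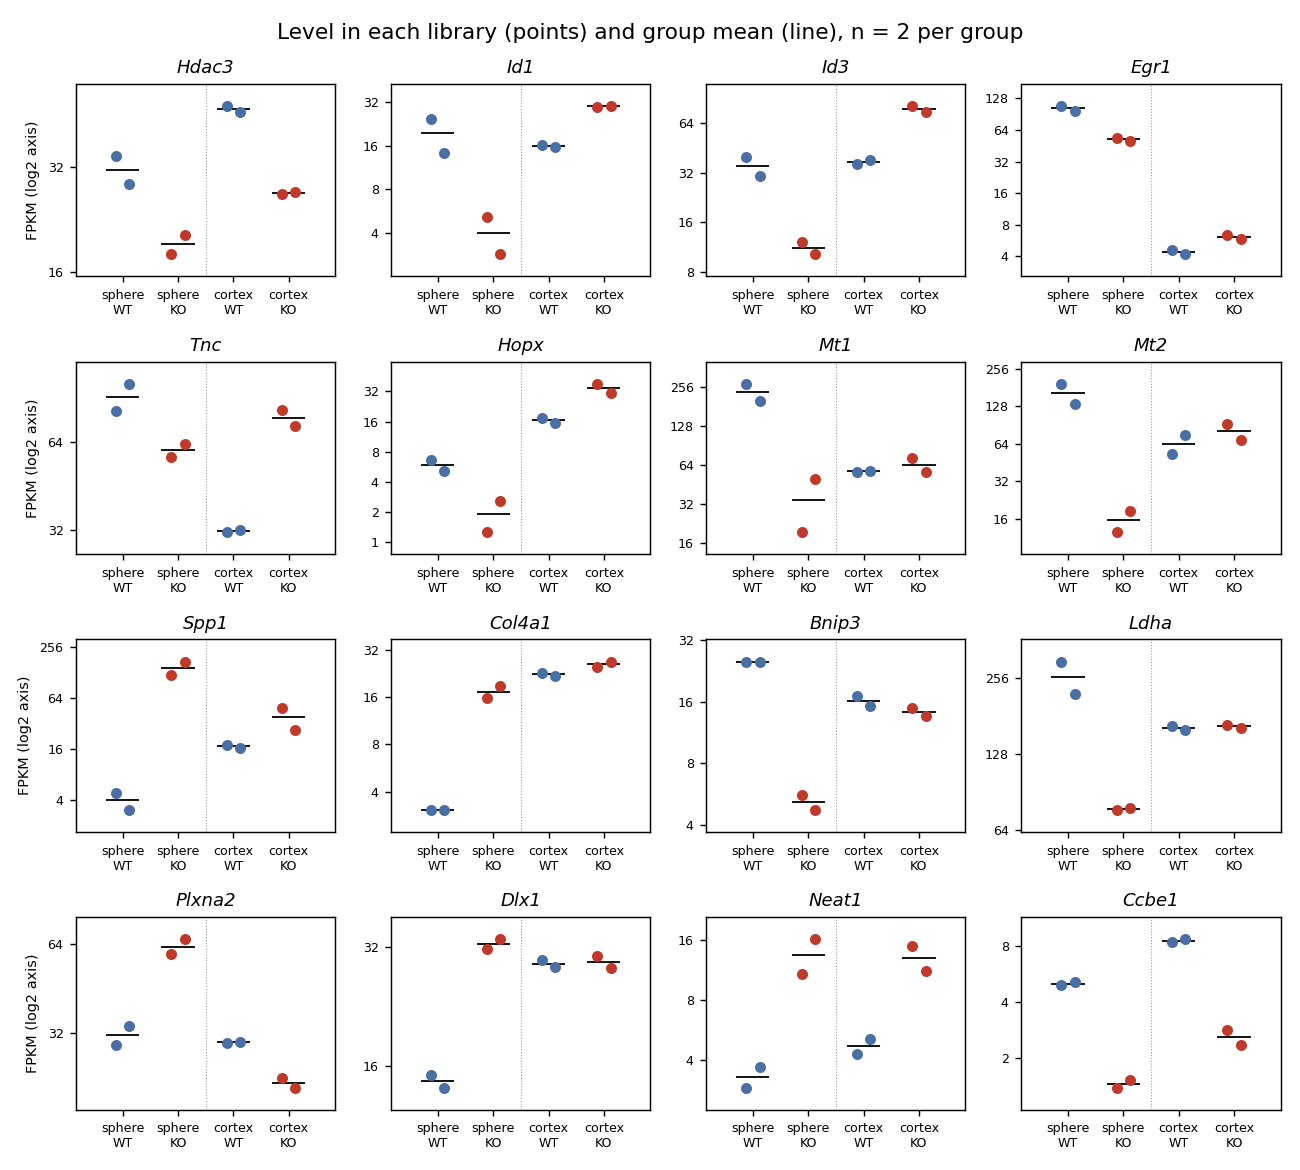
FPKM on a log2 axis for 16 genes; points are single libraries, lines group means, n = 2 per group, with neurospheres to the left and cortex to the right of the dotted line. Hdac3 falls on both sides, Id1, Id3 and Egr1 fall on the left and rise on the right, Mt1, Mt2, Bnip3, Ldha, Col4a1 and Dlx1 are apart on the left and close on the right, and Neat1 and Ccbe1 move the same way on both.

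A gene was read as limited to 1 tissue where its difference was called, its KO effect was called in that tissue and the 95% interval of the effect in the other tissue stayed within 1.5-fold. This held for 57 genes in neurospheres, 10 rises and 47 falls, and for 1 gene in cortex. Without neurosphere WT 5 or WT 6 it held for 0 genes in neurospheres. Without KO 7 or KO 8 it held for 151 and 228, and without cortex WT 1, WT 2, KO 1 or KO 2 for 2, 1, 2 and 9. The wide neurosphere intervals mean that few cortex responses could meet this limit, so the lopsided counts do not compare how specific the tissues were.

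The metallothioneins Mt1 and Mt2, small cysteine-rich proteins that bind zinc and copper, fell in neurospheres and were not called in cortex, though the cortex interval of Mt2 reached past 1.5-fold. Mt2 was at 194 and 133 FPKM in WT 5 and WT 6 and 12.6 and 18.4 in KO 7 and KO 8, and at 52.7 and 75.2 FPKM in WT 1 and WT 2 and 91.5 and 68.8 in KO 1 and KO 2. The neurosphere groups were far apart and the cortex groups overlapped. The log2 fold change was −3.32 (SE 0.24) in neurospheres and 0.33 (SE 0.15) in cortex, and the difference was −3.65 (−4.49 to −2.81, adjusted p = 0.00645, limma-trend). Mt1 was at 272 and 201.4 FPKM in WT and 19.5 and 49.8 in KO neurospheres and 56.7 and 58.0 FPKM in WT and 72.1 and 56.5 in KO cortex (difference −3.02, −4.19 to −1.85, adjusted p = 0.0341, limma-trend). The difference of Mt1 missed the threshold without neurosphere WT 5 or any 1 cortex library, and that of Mt2 without cortex WT 1 or KO 1 (adjusted p up to 0.211 and 0.0607). The brain isoform Mt3, the zinc exporter Slc30a1 and the metal-responsive factor Mtf1, the other 3 tested genes of the list, had no call in either tissue, with differences of −0.25, −0.55 and 0.41 that did not pass.

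The promoter windows of both genes are shown because metallothionein genes are the textbook targets of MTF1, which binds copies of a short metal response element. Each window is 250 bases before to 50 after the start, from RefSeq on build GRCm38.p6, 5′ to 3′ on the gene's strand. Capitals mark TGCACNC or TGCGCNC on either strand.
Mt1 (chr8:94178839-94179138, plus strand): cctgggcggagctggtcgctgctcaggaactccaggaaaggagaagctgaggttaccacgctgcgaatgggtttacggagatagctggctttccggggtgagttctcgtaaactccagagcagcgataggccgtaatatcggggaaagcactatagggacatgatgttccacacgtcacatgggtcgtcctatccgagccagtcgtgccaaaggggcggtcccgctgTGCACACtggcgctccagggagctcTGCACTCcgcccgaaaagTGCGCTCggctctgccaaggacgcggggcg
Mt2 (chr8:94172368-94172667, plus strand): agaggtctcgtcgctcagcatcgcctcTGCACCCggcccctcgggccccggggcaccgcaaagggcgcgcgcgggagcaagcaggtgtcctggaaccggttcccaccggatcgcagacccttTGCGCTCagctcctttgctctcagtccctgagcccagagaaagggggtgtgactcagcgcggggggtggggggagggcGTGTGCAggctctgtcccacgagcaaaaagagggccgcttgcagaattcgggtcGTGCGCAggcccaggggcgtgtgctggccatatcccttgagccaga
The Mt1 window held 3 matches and that of Mt2 4. Of all 32851 windows of this length 25.7% held at least 1 match and 1.97% held 3 or more. A match is a description of the letters and not evidence of binding.

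Genes of the hypoxia response and glycolysis held more called differences than any other list tested. Under low oxygen the HIF transcription factors raise glucose uptake, glycolysis and lactate production, and the same enzymes supply dividing progenitors with energy. Of 33 listed genes 28 were tested, and the difference was called lower in neurospheres for 16 and higher for 0 (background 0.977% and 0.420%). In neurospheres 18 fell and 0 rose (background 0.913% and 0.238%), and in cortex 8 fell and 0 rose (19.0% and 5.27%). After rescaling, 18 still fell in neurospheres, while in cortex 3 fell and 2 rose. The median change was −1.26 in neurospheres and −0.17 in cortex, against −0.15 and −0.10 over all genes, or −1.10 and −0.06 after rescaling. The list includes genes that earlier results of these data had shown to fall, so its direction is not independent evidence. The called count was 12 without neurosphere WT 5, 16 to 21 without each other neurosphere library, and 0, 0, 0 and 2 without cortex WT 1, WT 2, KO 1 and KO 2, with a median difference between −1.07 and −1.31 in these fits.

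Glucose uptake and the upper part of glycolysis held called and uncalled genes. Slc2a1, the glucose transporter GLUT1, was at 27.3 and 24.6 FPKM in WT and 5.58 and 6.50 in KO neurospheres and 16.4 and 14.3 FPKM in WT and 12.4 and 12.5 in KO cortex. It fell in both tissues, and by more in neurospheres (difference −1.66, −2.06 to −1.27, adjusted p = 0.00713, limma-trend). After rescaling, its cortex change was −0.17 and did not pass (adjusted p = 0.148, limma-trend). Gpi1, glucose phosphate isomerase, was at 351 and 312 FPKM in WT and 98.7 and 107 in KO neurospheres and 44.4 and 41.2 FPKM in WT and 44.7 and 43.7 in KO cortex. Pfkl, a phosphofructokinase subunit, fell in both tissues, and its difference, at −0.71, did not pass (adjusted p = 0.0877, limma-trend). Hk1, a hexokinase, and Pfkp, another phosphofructokinase subunit, had differences of −0.20 and −0.14 after rescaling that did not pass.

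Several genes of the lower steps had called differences. Ldha, the lactate dehydrogenase subunit that favours lactate formation, was at 296 and 221 FPKM in WT and 77.3 and 78.6 in KO neurospheres and 165 and 159 FPKM in WT and 167 and 162 in KO cortex, with a clear gap in the first and overlap in the second. Its difference was −1.73 (−2.19 to −1.27, adjusted p = 0.0107, limma-trend). Aldoa, Tpi1, Pgk1, Pgam1 and Eno1, which encode enzymes in the stretch from aldolase to enolase, had differences of −1.25, −1.24, −1.24, −0.85 and −1.35, each called. Gapdh, whose enzyme lies within that stretch, at −0.74 and Pkm at −0.39 did not pass. Pdk1, the kinase that keeps pyruvate out of mitochondria, fell in both tissues and by more in neurospheres (difference −1.16, adjusted p = 0.0180, limma-trend).

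Hypoxia targets outside glycolysis included called and uncalled genes. Bnip3, a mitochondrial protein of mitophagy, was at 25.2 and 25.1 FPKM in WT and 5.59 and 4.76 in KO neurospheres and 17.1 and 15.3 FPKM in WT and 14.9 and 13.7 in KO cortex. The effect of KO was −2.09 (SE 0.17) in neurospheres and −0.17 (SE 0.08) in cortex on the log2 scale, and the difference was −1.92 (−2.30 to −1.54, adjusted p = 0.00425, limma-trend), which missed the threshold without cortex WT 1, WT 2 or KO 1 (adjusted p up to 0.0541). Vegfa, the vessel growth factor, was at 117 and 118 FPKM in WT and 45.7 and 51.9 in KO neurospheres and 14.5 and 17.99 FPKM in WT and 17.9 and 18.2 in KO cortex, high in the cultures and with overlapping groups in cortex. Egln3, an oxygen-sensing prolyl hydroxylase, fell in both tissues, and its difference of −1.42 was called. Slc16a3, a lactate exporter on the same list, was in the neurosphere table alone, at 5.75 and 5.66 FPKM in WT and 0.0299 and 0.0541 in KO. Ddit4, a stress-induced inhibitor of mTORC1 often raised by hypoxia, had 0.01 in neurospheres and −0.02 in cortex and did not pass in either. The differences of Bnip3l, Higd1a, Egln1, Kdm3a and Mxi1, at −0.68, −0.65, −0.30, −0.34 and −0.15, did not pass.

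**Figure D3:**
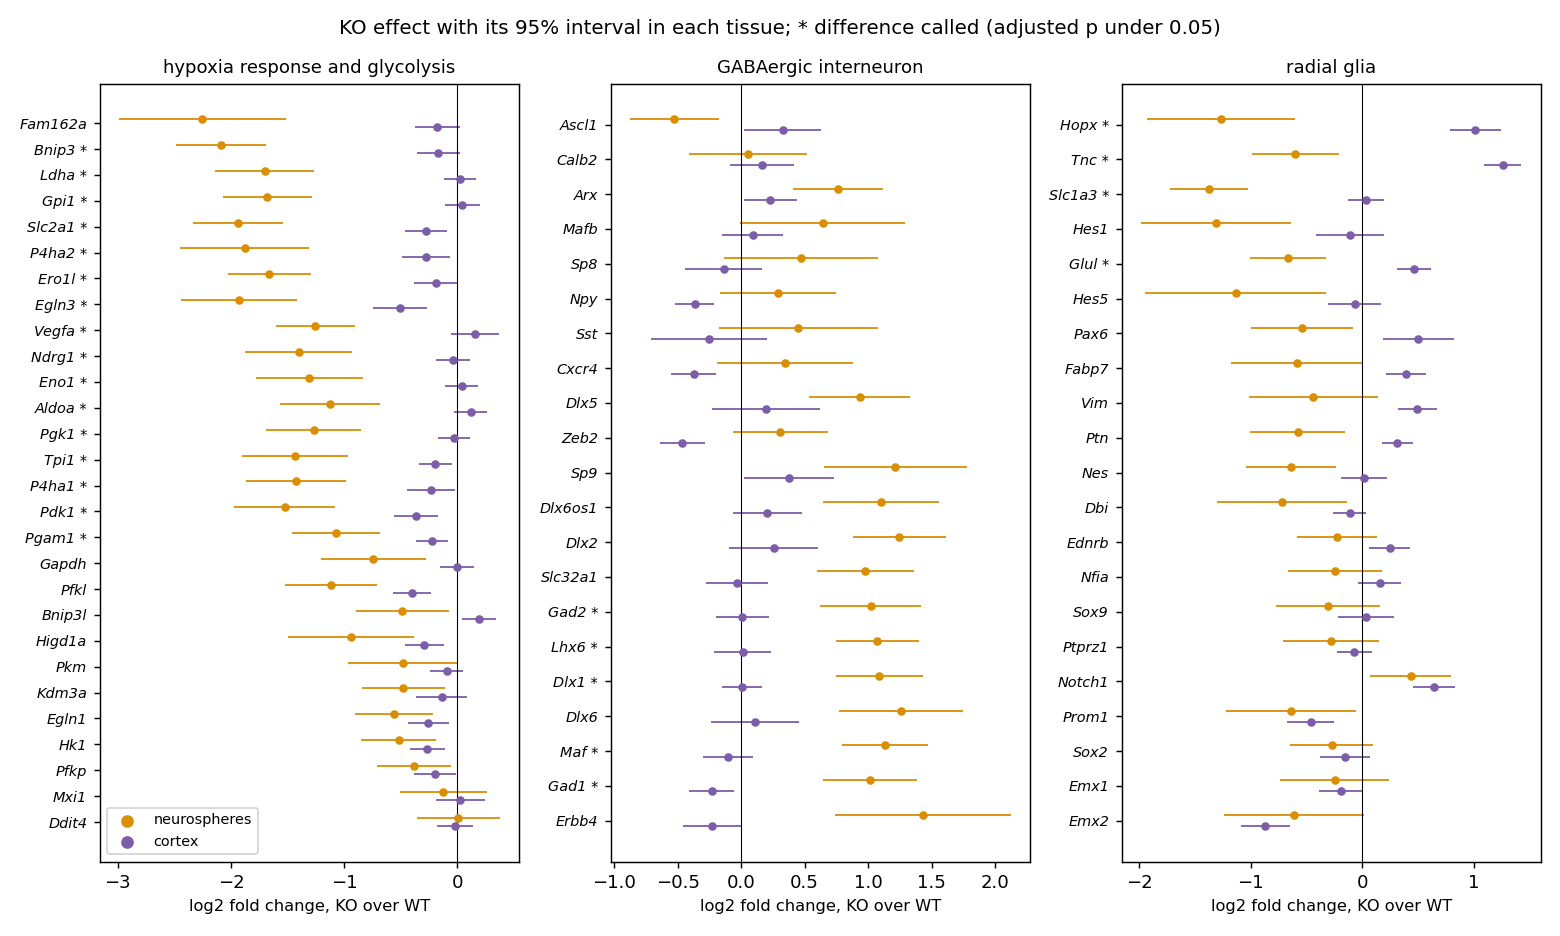
Log2 fold change (KO over WT, FPKM + 1) with its 95% interval for every tested gene of 3 lists, hypoxia and glycolysis (28), GABAergic interneuron (21) and radial glia (21), in neurospheres (orange) and cortex (purple); an asterisk marks a called difference. The neurosphere points lie to the left of the cortex points for 27 of the 28 genes of the first list and mostly to the right in the second.

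The windows of 2 of these genes are shown for the core of the hypoxia response element, ACGTG, searched on both strands and set in capitals, where the palindrome CACGTG counts on each strand and neighbouring matches merge.
Bnip3 (chr7:138909457-138909756, minus strand): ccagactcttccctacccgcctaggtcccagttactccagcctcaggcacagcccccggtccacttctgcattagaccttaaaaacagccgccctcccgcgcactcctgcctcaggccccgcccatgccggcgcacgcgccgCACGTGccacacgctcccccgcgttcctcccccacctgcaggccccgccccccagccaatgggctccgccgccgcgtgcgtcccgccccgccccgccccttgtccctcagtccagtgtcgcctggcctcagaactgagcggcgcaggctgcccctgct
Ldha (chr7:46845554-46845853, plus strand): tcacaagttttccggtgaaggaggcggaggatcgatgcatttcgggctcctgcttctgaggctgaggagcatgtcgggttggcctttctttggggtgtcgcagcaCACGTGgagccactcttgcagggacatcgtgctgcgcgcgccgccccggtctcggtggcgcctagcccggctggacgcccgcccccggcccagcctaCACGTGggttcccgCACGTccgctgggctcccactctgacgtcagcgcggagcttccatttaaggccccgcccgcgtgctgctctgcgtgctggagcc
The Bnip3 window held 2 matches, against at least 1 in 19.6% of all windows. That of Ldha held 5. A window of Ldha was shown only where it held a match, so it is not set against that share. Among list members with a window, 10 of 14 with a called difference and 8 of 11 without one held ACGTG, against 21.8% of all genes with a window. The shares were 71.4% and 72.7%.

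GABAergic interneuron genes held called differences in the other direction. Cortical interneurons are born in the ventral telencephalon under Dlx and Lhx6 control and reach the cortex by migration, so an Emx1 driver does not act in their lineage. Whether the cultures from cerebrum held ventral progenitors is not known. What part driver or cell origin had in the values below was not tested. Of 24 listed genes 21 were tested. The difference was called higher in neurospheres for 5 (background 0.420%) and lower for 0, and 8 rose in neurospheres (background 0.238%). In cortex 3 fell, a lower share than the 19.0% of all genes. The median change was 0.98 in neurospheres and 0.01 in cortex, or 1.13 and 0.12 after rescaling. Difference calls numbered 5 to 9 without each neurosphere library and 0 without each cortex library, and the neurosphere rises 0 without WT 5 or WT 6 and 5 with a pseudocount of 0.1. The cortex falls numbered 1 without KO 1 or KO 2.

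Dlx1, a homeobox factor of ventral progenitors, was at 15.3 and 14.2 FPKM in WT 5 and WT 6 and 31.5 and 33.3 in KO 7 and KO 8, and at 29.5 and 28.4 FPKM in WT 1 and WT 2 and 30.2 and 28.2 in KO 1 and KO 2. The neurosphere groups were apart, and the 4 cortex libraries overlapped. The log2 fold change was 1.09 (SE 0.15) in neurospheres and 0.01 (SE 0.07) in cortex, and the difference was 1.08 (0.76 to 1.40, adjusted p = 0.0136, limma-trend). Lhx6, which specifies interneurons of the medial ganglionic eminence, was at 29.9 and 28.2 FPKM in WT and 62.9 and 61.6 in KO neurospheres and 18.6 and 16.9 FPKM in WT and 16.03 and 19.9 in KO cortex. Maf, a transcription factor of the same lineage, was at 17.4 and 16.02 FPKM in WT and 38.7 and 36.8 in KO neurospheres and 6.75 and 6.17 FPKM in WT and 5.86 and 6.03 in KO cortex, with a difference of 1.24 (adjusted p = 0.0111, limma-trend). The enzymes of GABA synthesis Gad1 and Gad2 had differences of 1.25 and 1.01, both called. The vesicular transporter Slc32a1, at 1.01, and Dlx2, at 0.99, did not pass. Zeb2, Npy and Cxcr4 fell in cortex (−0.46, −0.37 and −0.37), with differences that did not pass. Nr2f2, a nuclear receptor of caudally derived interneurons and outside the list, fell in cortex (−0.36), was at 0.80 in neurospheres, and had a called difference of 1.16. Its choice followed its values.

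Marker sums gave the setting of these values in neurospheres. Summed FPKM over 21 radial glia genes was 2530 and 2062 in WT and 1404 and 1630 in KO neurospheres, and over 19 genes of the G2 and M phases 267 and 249 against 128 and 135. Over 17 pan-neuronal genes it was 2590 and 2194 against 2728 and 2506, which overlap. In cortex the radial glia sums were 1855 and 1938 in WT and 2420 and 2278 in KO, and those of G2 and M 77.9 and 70.4 against 88.7 and 68.5. How far such shifts take part in the differences of single genes was not tested.

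Of collagen IV, the network-forming collagen of basement membranes, the chains Col4a1 and Col4a2 rose in neurospheres. Another chain, Col4a5, had 0.03 in neurospheres and 0.01 in cortex after rescaling and passed in neither. Col4a1 was at 3.08 and 3.08 FPKM in WT 5 and WT 6 and 15.7 and 19.0 in KO 7 and KO 8, and at 22.9 and 22.0 FPKM in WT 1 and WT 2 and 25.0 and 27.0 in KO 1 and KO 2. KO lay above WT in both tissues, with a far wider gap in neurospheres. After rescaling, the cortex rise of Col4a1 passed (0.32, adjusted p = 0.0183, limma-trend), so its limit to neurospheres depended on the scaling. The effect of KO was 2.16 (SE 0.19) in neurospheres and 0.20 (SE 0.07) in cortex on the log2 scale, and the difference was 1.96 (1.58 to 2.34, adjusted p = 0.00425, limma-trend), which missed the threshold without cortex WT 1, WT 2 or KO 1 (adjusted p up to 0.0550). Col4a2 was at 3.74 and 5.02 FPKM in WT and 17.3 and 19.3 in KO neurospheres and 19.3 and 16.1 FPKM in WT and 18.7 and 20.0 in KO cortex (difference 1.72, adjusted p = 0.0111, limma-trend). These genes stand head to head, and their RefSeq promoter windows (GRCm38.p6, chr8:11312777-11313076 on the minus strand and chr8:11312555-11312854 on the plus strand) overlap by 78 bases. In the same list of 12 tested matrix genes, 2 lecticans, proteoglycans that bind hyaluronan, had a called difference below 0 (background 0.977%), while another, Vcan, had 0.20 and did not pass. Ncan, the proteoglycan neurocan, was at 196 and 234 FPKM in WT and 162 and 157 in KO neurospheres and 80.6 and 79.6 FPKM in WT and 156 and 148 in KO cortex (difference −1.34, adjusted p = 0.0111, limma-trend). Bcan, brevican, fell in neurospheres and had a difference of −1.33 (adjusted p = 0.0282, limma-trend).

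Spp1 had the largest positive difference. It encodes osteopontin, a secreted matrix phosphoprotein of microglia, bone and injured tissue. It was at 4.86 and 3.04 FPKM in WT 5 and WT 6 and 119 and 173 in KO 7 and KO 8, and at 17.7 and 16.53 FPKM in WT 1 and WT 2 and 49.3 and 26.5 in KO 1 and KO 2. Every KO library lay above its WT, so the rise was shared in direction and unequal in size. The log2 fold change was 4.89 (SE 0.24) in neurospheres and 1.04 (SE 0.20) in cortex, and the difference was 3.85 (2.88 to 4.82, adjusted p = 0.00863, limma-trend), which missed the threshold without cortex WT 1 or WT 2 (adjusted p up to 0.0720).

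Markers of vessels, meninges and microglia were mostly in the cortex FPKM table alone (13 of 14 endothelial and pericyte, 14 of 17 microglia and macrophage and 12 of 14 meningeal fibroblast genes), so that both tissues are read from the authors' deposited tables. Of these, 5 of 9 meningeal fibroblast genes with an adjusted p rose in KO neurospheres and 8 of 13 in KO cortex in the authors' deposited tables, and 0 fell in either (3.45% and 6.95% of all genes rose there, 2.29% and 5.83% fell). Col3a1 and Col1a1, the fibrillar collagens of fibroblasts, had 4.28 and 3.28 in neurospheres and 0.65 and 0.64 in cortex in the authors' deposited tables, and the pericyte receptor Pdgfrb 1.39 and 0.31. The endothelial marker Cldn5 and the microglial markers Csf1r and P2ry12 had mean normalized counts of 0.443, 2.51 and 0.753 over the neurosphere libraries in the authors' deposited table. In cortex 6 of 14 microglia and macrophage genes rose and 1 fell in the authors' deposited table, against the same shares. What part fibroblast-like cells had in the rises of Col4a1, Col4a2 and Spp1 was not tested.

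Other neurosphere-limited genes were spread over several functions. Nrp2, a co-receptor for semaphorins and VEGF, rose (difference 1.18). Ptgds, prostaglandin D synthase, rose and was at 6.62 and 6.24 FPKM in WT and 14.4 and 16.2 in KO neurospheres, while cortex stayed between 289 and 326 FPKM (difference 1.15). Hmox1, the heme-degrading enzyme of the oxidative stress response, was at 94.6 and 82.3 FPKM in WT and 19.5 and 26.6 in KO neurospheres and 3.96 and 3.27 FPKM in WT and 4.48 and 3.84 in KO cortex (difference −2.07, adjusted p = 0.00934, limma-trend). Dio2, the deiodinase that activates thyroid hormone, was at 7.01 and 7.89 FPKM in WT and 0.894 and 1.48 in KO neurospheres and 5.56 and 5.21 FPKM in WT and 5.24 and 4.51 in KO cortex (difference −1.84, adjusted p = 0.0127, limma-trend). Cav1, caveolin of membrane pits, fell likewise (difference −1.76), as did Slc1a3, the glial glutamate transporter GLAST (difference −1.41). Nthl1, a DNA repair glycosylase, fell in neurospheres with a difference of −1.94, though its cortex interval reached past 1.5-fold.

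The largest tissue-limited values rested on entries of 0. Taf10, a subunit of the TFIID and SAGA complexes, was at 23.5 and 17.3 FPKM in WT and 0 and 0 in KO neurospheres and 30.8 and 25.9 FPKM in WT and 31.8 and 29.5 in KO cortex, and 1500012F01Rik at 17.0 and 12.03 FPKM in WT and 0 and 0 in KO neurospheres and 60.9 and 47.3 FPKM in WT and 51.3 and 47.9 in KO cortex. In the authors' deposited tables their neurosphere changes were −0.22 (adjusted p = 0.763) and −0.53 (adjusted p = 0.323), and no fall was called there. B3gntl1, the 1 gene limited to cortex, was listed at 0 in both cortex KO libraries against 3.44 and 3.31 FPKM in WT, with −0.02 in the authors' deposited cortex table (adjusted p = 0.958). An exact 0 in such tables can be a failed estimate, and 6 of the 153 genes had one in some library.

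Effects called in cortex, with a called difference and no call in neurospheres, numbered 50, of which 28 rose and 22 fell in cortex. The neurosphere value had the opposite sign in all 28 of the first and in 20 of the second. Choice by a called difference without a neurosphere call favours opposite signs, so these counts are no separate support. Of all cortex calls, 73.6% had the same sign in neurospheres. Since no neurosphere change passed on its own, what the test shows is unequal change, not a reversal of each gene.

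The 28 rising genes included Tnc, Hopx and Glul of the radial glia list. Tnc, tenascin C of the stem cell matrix, was at 82.1 and 102 FPKM in WT 5 and WT 6 and 57.2 and 63.0 in KO 7 and KO 8, and at 31.5 and 32.0 FPKM in WT 1 and WT 2 and 82.6 and 72.7 in KO 1 and KO 2. KO lay below WT in neurospheres without passing (adjusted p = 0.134, limma-trend) and rose in cortex (1.26, SE 0.08), with a difference of −1.86 (−2.28 to −1.44, adjusted p = 0.00645, limma-trend). Hopx, a homeodomain protein known from human work as a marker of outer radial glia, was at 6.602 and 5.14 FPKM in WT and 1.27 and 2.56 in KO neurospheres and 17.5 and 15.5 FPKM in WT and 38.3 and 30.6 in KO cortex (difference −2.28, adjusted p = 0.0170, limma-trend). Glul, glutamine synthetase, rose in cortex (0.47) against −0.67 in neurospheres, a called difference.

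Over the 21 tested radial glia genes the difference was called lower in neurospheres for 4 (Hopx, Tnc, Slc1a3 and Glul) and higher for 0. In cortex 8 rose (background 5.27%) and 2 fell (19.0%), and in neurospheres 1 fell (0.913%). The 8 rises became 5 without cortex KO 1, and the 2 falls 4 without WT 2 and 1 without KO 2. The median change was −0.58 in neurospheres and 0.03 in cortex, or −0.42 and 0.15 after rescaling. Fabp7, Vim, Ptn and Pax6, which mark radial glia by lipid binding, intermediate filament, growth factor and transcription factor roles, rose in cortex and had negative neurosphere values that did not pass, with differences of −0.98, −0.93, −0.89 and −1.04 that did not pass either. Sox2 was at −0.28 and −0.16, so the list did not move as a block. The calls numbered 4 to 8 without each neurosphere library and 0, 0, 0 and 2 without cortex WT 1, WT 2, KO 1 and KO 2.

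Astrocyte genes showed the same order of medians, −0.48 in neurospheres and 0.15 in cortex over 15 tested genes (−0.31 and 0.27 after rescaling), with 2 called differences (background 0.977%), Id3 and the matrix glycoprotein gene Sparcl1. Sparcl1 fell in both tissues, by −1.53 in neurospheres and −0.22 in cortex, though after rescaling the cortex value was −0.10 and did not pass (adjusted p = 0.313, limma-trend). Gfap, the astrocytic intermediate filament, was at 6.48 and 3.47 FPKM in WT and 5.80 and 9.92 in KO neurospheres and 20.4 and 21.4 FPKM in WT and 104 and 81.3 in KO cortex. It rose in cortex (2.09) and had overlapping groups in neurospheres, and the difference of −1.52 did not pass (adjusted p = 0.108, limma-trend), so that a limit to cortex was not shown. Apoe, a lipid carrier of glia, was similar at −1.08 (adjusted p = 0.0761, limma-trend).

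Immediate early genes, which respond to stimuli without new protein synthesis, had 2 called differences among 9 tested, Egr1 and Ier2 (background 0.977%). In cortex 4 rose and 1 fell, against 5.27% and 19.0% of all genes. Without cortex KO 2 1 rose and 0 fell, and without any 1 cortex library 0 differences were called. Without neurosphere WT 5 1 difference was called, and 3 without WT 6 or KO 7. Ier2 was at 18.4 and 11.98 FPKM in WT and 8.98 and 6.08 in KO neurospheres and 3.87 and 3.20 FPKM in WT and 7.73 and 7.49 in KO cortex (difference −1.84, adjusted p = 0.0347, limma-trend). Ier3 and Cyr61, outside the list and named after their values were seen, had differences of −1.60 and −1.58. Cdkn1a, the cell cycle inhibitor p21, was at 182 and 143 FPKM in WT and 114 and 124 in KO neurospheres and 6.98 and 5.35 FPKM in WT and 12.8 and 16.1 in KO cortex (difference −1.54, adjusted p = 0.0270, limma-trend). Of 19 tested genes of the G2 and M phases all had a value below 0 in neurospheres, 3 of them called (background 0.913%), and 13 had a value above 0 in cortex, 1 of them called (5.27%). The difference was called for Tpx2, a spindle assembly factor, and Top2a, the topoisomerase of dividing cells (−1.19 and −1.11), of which Tpx2 fell in neurospheres and Top2a rose in cortex. These calls numbered 0 without neurosphere WT 5 or any 1 cortex library, and 9, 3 and 7 without WT 6, KO 7 and KO 8. S phase genes had 0 called differences among 18 by limma-trend, with medians of −0.45 and 0.09. After rescaling the medians were −0.73 and 0.12 for G2 and M genes and −0.33 and 0.18 for S phase genes.

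The 22 falling genes included Unc5d, Klhl29, Dok6 and Vstm2b. Unc5d, a netrin receptor of migrating upper-layer neurons, was at 1.76 and 2.52 FPKM in WT and 4.62 and 3.22 in KO neurospheres and 5.05 and 4.94 FPKM in WT and 2.07 and 2.33 in KO cortex. The effect of KO was 0.64 (SE 0.26) in neurospheres and −0.91 (SE 0.09) in cortex on the log2 scale, and the difference was 1.55 (0.95 to 2.15, adjusted p = 0.0341, limma-trend). Klhl29, a kelch-like protein, was at 2.94 and 3.42 FPKM in WT and 6.87 and 5.67 in KO neurospheres and 10.8 and 10.02 FPKM in WT and 4.99 and 6.38 in KO cortex (difference 1.57, adjusted p = 0.0170, limma-trend). Dok6, an adaptor of the RET receptor, had a difference of 1.56, and Vstm2b 1 of 1.48. The adhesion genes Cntn6 and Cntnap2 and the AMPA receptor gene Gria4 were named after their values were seen and had differences of 1.17, 0.998 and 0.89, all called. In upper-layer neuron genes, 2 of 13 had a called difference (background 0.420% higher), Unc5d and Cux2 (0.93), both higher in neurospheres and neither called without neurosphere WT 5 or any 1 cortex library.

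Shared effects were called for 37 genes, 7 rises and 30 falls. Of the neurosphere rises 26.9% rose in cortex against 5.27% of all genes, and of the neurosphere falls 30% fell in cortex against 19.0%. Read from cortex, 1.21% of its rises rose in neurospheres against 0.238%, and 1.44% of its falls fell there against 0.913%. The effect was larger in neurospheres for 36 of the 37, where a call needed a larger change, and the difference was called for 8. Without neurosphere WT 5 or WT 6 there were 0 shared calls, without KO 7 112, without KO 8 127, and without cortex KO 1 and KO 2 21 and 19.

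The shared rises included Neat1, the long noncoding RNA that builds paraspeckles in the nucleus. It was at 2.93 and 3.72 FPKM in WT 5 and WT 6 and 10.8 and 16.01 in KO 7 and KO 8, and at 4.29 and 5.09 FPKM in WT 1 and WT 2 and 14.8 and 11.2 in KO 1 and KO 2. The log2 fold change was 1.72 (SE 0.24) in neurospheres and 1.29 (SE 0.12) in cortex, with a difference of 0.43 whose 95% interval was −0.25 to 1.11. Of 8 tested nuclear noncoding RNAs 5 rose in cortex and 1 in neurospheres, against 5.27% and 0.238% of all genes, and none had a called difference by limma-trend. Without cortex KO 2 the 5 became 2, without neurosphere WT 5 or WT 6 the 1 became 0, and without KO 8 it became 4, with 4 called differences. Malat1, the abundant RNA of nuclear speckles, rose in cortex (1.30), was at 0.32 in neurospheres and did not pass for the difference (−0.98, adjusted p = 0.0893, limma-trend). Mbp, myelin basic protein, was at 4.50 and 3.97 FPKM in WT and 10.1 and 11.9 in KO neurospheres and 5.93 and 6.98 FPKM in WT and 13.1 and 9.82 in KO cortex (difference 0.46, −0.07 to 0.998). Of 11 tested oligodendrocyte lineage genes 6 rose in cortex and 1 in neurospheres, against the same shares of all genes, with 0 called differences by limma-trend (1 after rescaling, 2 without neurosphere KO 8). Rasgef1b, an exchange factor for Ras-like GTPases, Scrt1, a neural zinc finger repressor, and Sez6, a dendritic protein, rose by 1.57, 0.91 and 1.03 in neurospheres and by 0.82, 0.63 and 0.59 in cortex. Dcn, the proteoglycan decorin, was the remaining shared rise beside Spp1 (1.74 and 0.43).

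Among the shared falls Ccbe1, a secreted factor needed for lymphatic vessel growth, was the 1 gene whose effect was not larger in neurospheres. It was at 4.89 and 5.11 FPKM in WT 5 and WT 6 and 1.38 and 1.52 in KO 7 and KO 8, and at 8.38 and 8.62 FPKM in WT 1 and WT 2 and 2.80 and 2.33 in KO 1 and KO 2. The effect of KO was −1.29 (SE 0.22) in neurospheres and −1.42 (SE 0.10) in cortex on the log2 scale, and the difference was 0.12 (95% interval −0.30 to 0.55), which holds 0. Rspo2, an R-spondin that strengthens Wnt signalling, was at 3.46 and 4.47 FPKM in WT and 0.557 and 0.412 in KO neurospheres and 5.82 and 6.48 FPKM in WT and 2.83 and 3.01 in KO cortex (difference −0.87, −1.37 to −0.37, adjusted p = 0.0973, limma-trend). Cap2, a regulator of actin, fell by −1.14 and −0.87, and F2r, the thrombin receptor PAR1, by −1.201 and −0.71. Syt4, a synaptotagmin of vesicle release, and Diras2, a Ras-like GTPase of neurons, fell by −0.88 and −1.03 in neurospheres and by −0.69 and −0.64 in cortex. After rescaling, the neurosphere falls of Ccbe1, Cap2, Syt4 and Diras2 did not pass (adjusted p = 0.0556, 0.0603, 0.0602 and 0.0671, limma-trend). Those of Rspo2 and F2r still passed.

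**Figure D4:**
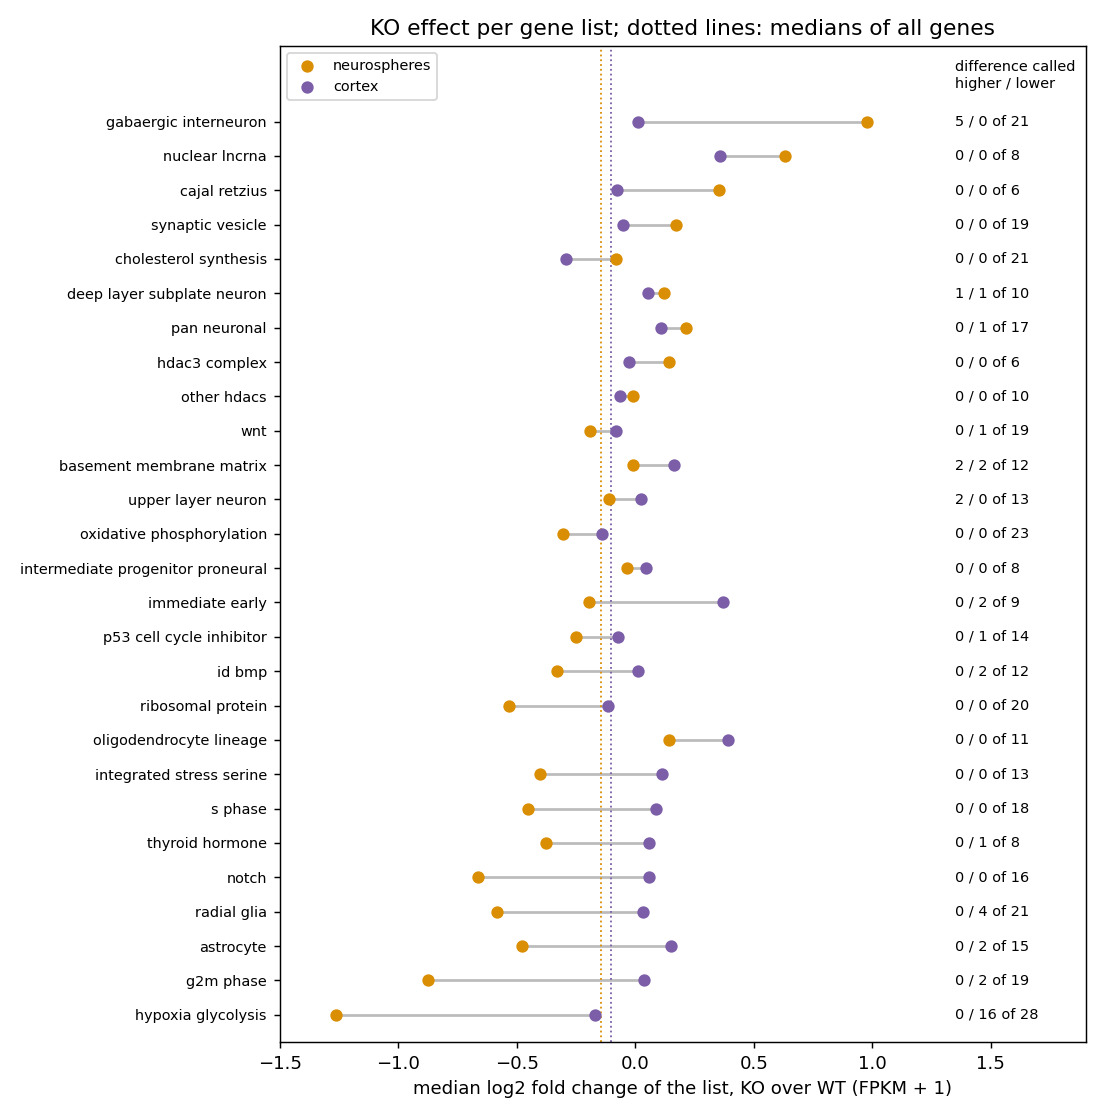
Median log2 fold change (KO over WT, FPKM + 1) of every list with at least 6 tested genes, in neurospheres (orange) and cortex (purple), ordered by the median difference; dotted lines are the medians of all 10947 genes and the numbers at the right give called differences, higher and lower, of the genes tested. The hypoxia and glycolysis list lies at −1.26 and −0.17, the GABAergic list at 0.98 and 0.01.

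Some lists had calls in cortex and no called difference. Of 21 tested cholesterol synthesis genes 12 fell in cortex and 0 in neurospheres by limma-trend, with medians of −0.29 and −0.08 (−0.18 and 0.08 after rescaling), and 0 differences were called. Of all genes 19.0% fell in cortex, and the 12 became 7 after rescaling and 5 and 6 without cortex KO 1 and KO 2. Ribosomal protein genes had medians of −0.53 in neurospheres and −0.12 in cortex, or −0.37 and 0.00 after rescaling, with 2 of 20 falling in cortex, a lower share than that of all genes, and 0 differences called by limma-trend. Without neurosphere WT 6, 16 of the 20 had a called difference. The cortex falls numbered 0 without KO 1 or KO 2 and 9 without WT 2. Genes of the HDAC3 complex other than Hdac3 had no called difference by limma-trend, and Tbl1x, which encodes 1 of its subunits, rose in cortex (0.27) with 0.39 in neurospheres.

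Genes in 1 table alone could not enter the difference. Of 442 such genes tested in neurospheres 0 rose and 8 fell by limma-trend, against 0.219% and 0.929% of the whole table. Among genes without an entry of 0 the largest falls were in Slc16a3, the thrombin receptor family gene F2rl2 and Dgkk, and Car9, a carbonic anhydrase induced by hypoxia, had WT values of 2.36 and 2.64 FPKM, with KO 7 and KO 8 listed at 0 (−1.81 on the log2(FPKM + 1) scale, a larger fall than F2rl2 and Dgkk). Of 993 in cortex 52 rose and 201 fell, against 4.80% and 17.7% of the whole table. Snord22 and Rmrp, short noncoding RNAs, had the largest rises among genes without an entry of 0 and rested on cortex KO 2, with 825 and 149 FPKM there against 60.9 and 14.6 in KO 1. S100a4, a calcium-binding protein, rose to 10.6 and 7.71 FPKM from 3.48 and 3.12. The largest falls among the same genes were in Rsph1, a component of motile cilia, the melanocortin receptor gene Mc4r and Xlr3b.

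The authors' deposited tables of fold changes, made from read counts for each tissue, gave adjusted p-values in both tissues for 12463 genes. At 0.05 they called 430 rises (3.45%) and 285 falls (2.29%) in neurospheres and 866 rises (6.95%) and 726 falls (5.83%) in cortex. There, 162 genes rose in both, which is 37.7% of the neurosphere and 18.7% of the cortex rises, and 54 fell in both, 18.9% and 7.44% of the falls. Another 18 fell in neurospheres and rose in cortex, 6.32% of the neurosphere falls against 6.95% of all genes. The reverse held for 15, 3.49% of the neurosphere rises against 5.83% of all genes. Neither share was above that of all genes. Id1 (−1.24 and 0.89), Id3 (−1.14 and 1.08), Egr1, Klf10, Thrsp and Tnc were among the 18 in the authors' deposited tables, and Plxna2, Rph3a, Unc5d, Klhl29 and Vstm2b among the 15. Rasl11a and Cox4i2 were not called in cortex there. The tables share their libraries with the FPKM values, so this is a second way of counting and no independent check. Of the 162 shared rises 25 were outside the fit of FPKM values, Col3a1, Col1a1 and Pdgfrb among them.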

How the data were processed

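Poly(A) RNA of 8 libraries was sequenced with a stranded TruSeq kit on a HiSeq2500, per the labels. Reads were handled with Trim Galore, Bowtie, STAR, Cufflinks, featureCounts and DESeq2 on build mm9, per the submitters' processing notes, and no version was stated. From these the authors deposited FPKM per library from Cufflinks, 1 table per tissue. They also deposited tables made with DESeq2 that hold a signal column (the mean normalized count), a log2 fold change, its standard error and Wald score, and a p-value with its adjusted value, all quoted here under the authors' name. These fold changes appear pulled toward 0, so their sizes are not set against those of FPKM. Whether the counting used strand is not known, so values of overlapping genes such as Dlx6 and Dlx6os1 are uncertain.

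Rows whose symbol had become a date (20 in neurospheres, 21 in cortex) were removed, and of repeated symbols the row with the highest FPKM was kept. No count test was used, since no counts per library were analysed, and total depth per library was not used. Implied fragments per gene come from the width of the Cufflinks intervals. Values were log2(FPKM + 1) for genes averaging 1 FPKM or more in each table, fitted with limma 3.58.1 (trend, two-sided, Benjamini-Hochberg) in R 4.3.3. Groups were 2 WT and 2 KO libraries per tissue, which the design text counts as separate brains. The difference was a contrast of the 4 group means with 4 residual degrees of freedom and 1 spread for both tissues. With equal group sizes this spread is right on average for the contrast, but on data simulated with the spread of each tissue the share of false calls lay above the nominal 5%. An exact permutation test cannot pass 0.05 with groups of 2 and was not used.

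Numbers are shared by cortex WT and KO libraries alone. The authors' deposited ratios match each KO library to a WT library in both tissues, without a stated reason. Deviations of same-numbered cortex libraries correlated at r = −0.14 across genes. This value cannot settle whether libraries were paired, and the main fits did not pair them. Figures used matplotlib 3.10.9 and tables pandas 2.3.3 in Python 3.11.15. Promoters came from RefSeq tables of build GRCm38.p6. The annotation supplied uses that build and not mm9, so no coordinates of the files were taken from it.

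Genes and lists were chosen with earlier results of these data known. Named genes were Hdac3, the 8 largest called differences in each direction without an entry of 0, and the 6 largest shared rises and falls. Also named were the 5 largest opposite genes of each direction, the 6 largest tissue-limited rises and falls, the 3 largest one-table changes, and list members. Only 2 opposite genes rose in neurospheres. Klhl29, Dok6 and Vstm2b, with a called difference and effects of opposite sign but no neurosphere call, filled that set. Alternatives were another pseudocount (0.1), no filter or a mean of at least 5 FPKM, rescaling, quantile normalization, weights per tissue, a robust prior, genes at 0 left out, another spread, a replicate block and each library left out.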

Additional observations from a re-analysis of the deposited data

Results flagged for a closer look

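The test of the difference itself marked 46 genes with a higher and 107 with a lower KO effect in neurospheres, and the following named genes among them. Opposite calls gave differences of 1.42 for Plxna2, 1.29 for Rph3a, −2.90 for Id1, −2.60 for Id3, −2.13 for Rasl11a, −1.70 for Thrsp and −2.73 for Cox4i2 on the log2 scale. Rises in neurospheres gave 3.85 for Spp1, 1.96 for Col4a1, 1.72 for Col4a2, 1.18 for Nrp2, 1.15 for Ptgds, 1.24 for Maf and 1.08 for Dlx1. Falls in neurospheres gave −3.65 for Mt2, −3.02 for Mt1, −2.07 for Hmox1, −1.94 for Nthl1, −1.92 for Bnip3, −1.84 for Dio2 and −1.76 for Cav1. Taf10 at −4.52, 1500012F01Rik at −3.82 and B3gntl1 at 2.09 rested on entries of 0, as did the value of Cox4i2 above. Changes called in cortex alone gave 1.57 for Klhl29, 1.56 for Dok6, 1.55 for Unc5d, 1.48 for Vstm2b and −2.28 for Hopx. With 2 libraries per group, which of them is outlying cannot be told within the group.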

How the results depend on the processing

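Median-ratio rescaling gave 76 higher differences and quantile normalization 96, against 46, while lower ones (151 and 156 against 107) stayed within 1.5 times. Taking the spread from all 8 libraries left 3 shared and 1 opposite calls. Effects limited to cortex numbered 0 with a pseudocount of 0.1 or whole-table fits, 3 without a filter or with a mean of at least 5 FPKM, 7 with rescaling, 9 with quantile normalization, and 2 with weights per tissue, without genes at 0 or with the shared spread. With a replicate block in cortex there were 9 higher and 31 lower differences and 23 effects limited to neurospheres. With the numbers crossed, an alternative chosen after seeing the data like the whole-table fits, these were 9, 27 and 17. The authors' deposited ratios match each KO library to a WT library in both tissues. The reason for the match is not stated, and no block was fitted in neurospheres.

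Without 1 library in turn, where a lone sample is assumed to vary like the others, higher differences ranged from 0 to 388, lower from 3 to 774, shared effects from 0 to 127, opposite from 0 to 38, effects limited to neurospheres from 0 to 228 and to cortex from 0 to 29. The difference of Hdac3 ranged from −0.026 (without neurosphere WT 6) to 0.23, and that of Ccbe1 was −0.025 with a pseudocount of 0.1. Both were uncalled throughout. Of the 29 called differences that the choice by size of change named, list members aside, 29 kept the call under each of the other settings that gave a value for all of them, 20 of 20 with a mean of at least 5 FPKM, 25 of 25 without genes at 0, 19 with the block, 16 with the crossed one and 3 to 29 without 1 library. The cause of these shifts was not tested.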

Other observations

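Deep-layer and subplate neuron genes held 1 called difference in each direction among 10 tested (background 0.420% higher and 0.977% lower), neither of them called without cortex WT 1, WT 2 or KO 1. Tbr1, a T-box factor of deep-layer neurons, was at 41.6 and 41.7 FPKM in WT and 73.7 and 77.5 in KO neurospheres and 36.6 and 32.8 FPKM in WT and 32.9 and 36.5 in KO cortex (difference 0.84, adjusted p = 0.0347, limma-trend). Ldb2, a cofactor of LIM-domain factors, was at 33.6 and 27.3 FPKM in WT and 9.40 and 9.36 in KO neurospheres and 45.0 and 47.1 FPKM in WT and 51.2 and 47.2 in KO cortex (difference −1.68, adjusted p = 0.00645, limma-trend). Among 17 pan-neuronal genes Nefm, the medium neurofilament chain, rose in cortex (0.89) against −0.37 in neurospheres, a called difference of −1.26. Nefl, the light chain, also rose in cortex (1.07) and was at 0.07 in neurospheres, and its difference of −0.997 did not pass (adjusted p = 0.0740, limma-trend).

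Notch, integrated stress and serine, oxidative phosphorylation and synaptic vesicle genes held 0 called differences among 16, 13, 23 and 19 tested by limma-trend, with median differences of −0.59, −0.49, −0.13 and 0.26. Of these lists Shmt2, a mitochondrial enzyme of serine and glycine metabolism, had the lowest adjusted p, with a difference of −0.81 (adjusted p = 0.0529, limma-trend). The Notch ligand gene Dll3 rose in cortex (0.57) and was at −0.80 in neurospheres (difference −1.36, adjusted p = 0.0706, limma-trend). Of 19 tested Wnt genes Tcf7 had a called difference (−1.08, background 0.977% lower), and 3 fell in cortex (background 19.0%). Ccdc167, named after its values were seen, was listed at 0 in both cortex KO libraries like B3gntl1, against 3.09 and 3.54 FPKM in WT, and at 3.66 to 4.57 FPKM in the neurosphere libraries.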
